A study of Mus musculus with 23 samples.

Results

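The 10 genes described here are markers of brain endothelium, the cell layer that lines blood vessels and forms the blood-brain barrier. They were taken by symbol, and all 10 were found once each among the 51912 gene identifiers of both deposited tables. The libraries are mRNA from whole hippocampus of male wild-type C57BL/6 mice, an inbred laboratory strain, so endothelial transcripts were measured within bulk tissue. In the first generation, 4 libraries came from exercised fathers, which were run on a treadmill, 40 minutes daily for 6 weeks. Another 4 libraries came from sedentary fathers, which were not, and both groups were 7 months old. In the second generation, 7 libraries came from offspring of exercised fathers and 8 from offspring of sedentary fathers, all 5.5 months old. Exercise came before breeding, and all groups took behavioural tests before tissue was collected. The labels do not say which offspring shared a father or a litter.

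Endothelial cells of the brain hold one another through adherens junctions, built on VE-cadherin, and through tight junctions, in which claudin-5 closes the cleft between cells to small molecules. The angiopoietins, made largely by cells of the vessel wall, act on the receptor tyrosine kinase Tie2, which works with its relative Tie1 to keep the vessel quiescent. Transporters in the endothelial membrane set which compounds cross between blood and brain. Of the junction genes among the 10, Cdh5 encodes VE-cadherin, Cldn5 claudin-5, Pecam1 the adhesion molecule CD31 and Esam an immunoglobulin-like adhesion molecule of the tight junction. Of the receptors, Tek encodes Tie2, Tie1 its co-receptor and Adgrl4 an adhesion G protein-coupled receptor of angiogenic endothelium. Slco1a4 encodes an organic anion transporter of the mouse barrier, Ly6c1 a lipid-anchored surface protein that some leukocytes also carry, and Emcn endomucin, a sialomucin of capillary and venous endothelium.

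Values are the authors' normalized counts, which are gene counts divided by 1 size factor per library, and both tables proved to lie on 1 scale. Counts assigned to genes, as recovered from the normalized values, summed to between 33667580 and 55172616 per library. Each of the 10 genes was detected in all 23 libraries. Per kilobase of exonic sequence, the mean level over the 23 libraries was 804 normalized counts for Cldn5, 376 for Ly6c1 and 267 for Slco1a4. On the same scale Cdh5 had 148, Adgrl4 144, Esam 129, Pecam1 113, Tek 112 and Tie1 75.95 normalized counts per kilobase. Emcn was the lowest, at 34.0. Cldn5, Ly6c1 and Slco1a4 remained the leading genes when the length of the longest transcript was used, but the order of the genes from Cdh5 to Tek in this list then changed. Among all tested genes, mean normalized counts, not corrected for length, placed the 10 between the 35.0th percentile (Emcn) and the 71.6th (Slco1a4).

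Reads cannot always be assigned to 1 gene. Of the windows of 76 bases, the read length, along the exons of Ly6c1, 18.5% also occurred in another gene, mostly in its paralog Ly6c2, which averaged only 5.03 normalized counts. The share was 1.01% for Slco1a4, mostly with Slco1a5, 0.0942% for Pecam1 and 0 for the other members. Cdh5 overlaps the antisense gene Gm29682, and whether counting used the strand is not given in the sources used here.

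Promoter sequence of 7 of the 10 genes was taken from RefSeq (build GRCm38.p6), for the 250 bases before each start. It is given below for Tek and Tie1, which encode the paired receptors and moved with Cdh5 over libraries, and for Cldn5, the member that differed between generations. Capitals mark motifs of factor families known for endothelial genes, as found on either strand: GGAAGT (ETS), AACAAT (SOX) and GTAAACA (FOX). The sequences run 5′ to 3′ on the strand of the gene.
Tek, chr4:94739039-94739288, plus strand: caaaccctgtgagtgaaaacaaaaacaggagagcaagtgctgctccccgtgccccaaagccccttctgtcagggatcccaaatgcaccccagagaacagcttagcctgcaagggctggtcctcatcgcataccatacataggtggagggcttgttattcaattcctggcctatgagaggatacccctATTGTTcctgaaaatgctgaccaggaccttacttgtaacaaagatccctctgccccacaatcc
Tie1, chr4:118489850-118490099, minus strand: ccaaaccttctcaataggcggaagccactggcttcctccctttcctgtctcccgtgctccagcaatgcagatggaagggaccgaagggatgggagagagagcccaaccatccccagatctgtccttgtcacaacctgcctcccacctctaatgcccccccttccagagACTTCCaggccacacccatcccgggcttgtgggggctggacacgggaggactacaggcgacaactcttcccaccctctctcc
Cldn5, chr16:18776597-18776846, plus strand: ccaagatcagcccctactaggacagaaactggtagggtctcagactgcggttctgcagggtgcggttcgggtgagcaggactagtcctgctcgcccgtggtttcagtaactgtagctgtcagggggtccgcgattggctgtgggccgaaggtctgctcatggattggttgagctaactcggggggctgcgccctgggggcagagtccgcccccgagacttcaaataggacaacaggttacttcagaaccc
In Tek the SOX motif, as its reverse complement, began at position -63 from the start, and in Tie1 the ETS motif, as its reverse complement, began at position -82. The GENCODE annotation places the 5′ end of Tie1 at chr4:118490061, inside this RefSeq window, so there the motif falls within the gene. The SOX motif was also present in Emcn and Slco1a4, and the ETS motif at 1 of the 2 starts of Ly6c1. In all, 2 of the 7 genes held the ETS motif, 3 the SOX motif and 0 the FOX motif. Of 32851 mouse promoter windows of the same length, 19.7% held the ETS motif, 9.42% the SOX motif and 3.17% the FOX motif. The letters in Cldn5 matched none of the 3 motifs in this window. A match describes the sequence and was not tested as a binding site.

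Several libraries stood apart. Exercised fathers replicates 1 and 4 were low in most members, with a mean log2 level over the 10 genes of 8.79 and 8.78, against 9.19 and 9.23 in replicates 2 and 3 of the same group. Sedentary fathers replicates 1 to 4 had 9.07, 9.09, 9.24 and 9.31. Among offspring, the highest means were 9.40 in replicate 1 of the offspring of exercised fathers and 9.45 in replicate 3 of the offspring of sedentary fathers. Barcodes of another number series, AD21, mark exercised fathers replicate 4 and offspring of sedentary fathers replicates 7 and 8. Markers of neighbouring tissue varied widely: the summed level of 15 choroid plexus genes ran from 87333 to 307470 normalized counts in exercised fathers and from 11413 to 279618 in sedentary fathers. That of the thalamus and habenula list ran from 6158 to 8583 in exercised fathers and from 6221 to 21432 in sedentary fathers.

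**Figure D1:**
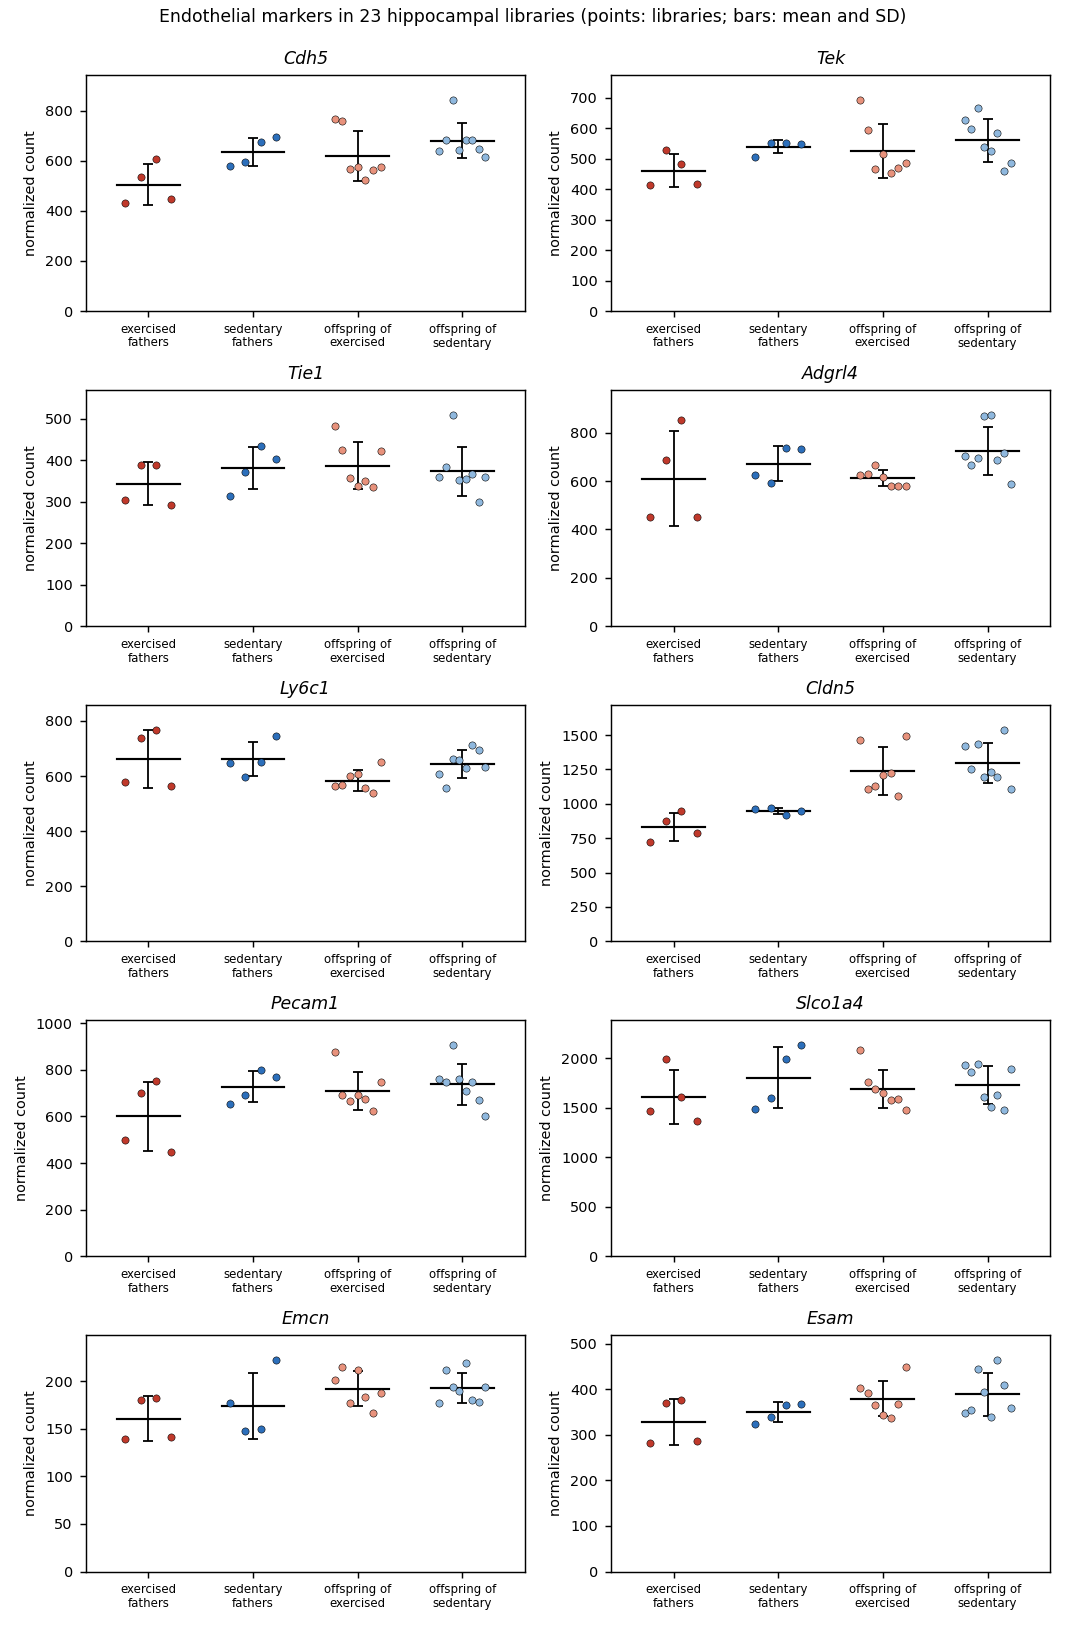
Normalized counts of the 10 endothelial markers on linear axes from 0, 1 point per library, in exercised fathers (n = 4), sedentary fathers (n = 4), offspring of exercised fathers (n = 7) and offspring of sedentary fathers (n = 8); lines and bars give mean and SD. Cldn5 lay between 719 and 972 in all fathers and above 1060 in all offspring, while within each generation the groups overlapped for every member.

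The first comparison set exercised against sedentary fathers, the first stated goal of the sequencing. All 10 endothelial markers had a lower mean log2 level in exercised fathers, but none passed the test over all genes. The sign of Ly6c1 turned with DESeq2, array weights or the thalamus covariate and without the AD21 library, and that of Emcn with array weights. The changes were small, with log2 differences between -0.34 (Cdh5) and -0.01 (Ly6c1) and a median of -0.18, against a median of 0.00 over the 17493 genes tested. A log2 difference below 0 was seen in 48.8% of all tested genes.

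Cdh5, the adherens junction gene, had 432, 534, 605 and 448 normalized counts in exercised fathers, against 579, 593, 673 and 692 in sedentary fathers. The groups overlapped through the exercised fathers replicate 3. The log2 difference of Cdh5 was -0.34 (SE 0.11) with a limma adjusted p of 0.550. Tek had 414, 530, 483 and 419 normalized counts in exercised fathers, against 507, 552, 552 and 549 in sedentary fathers. Replicate 2 of the exercised fathers lay above the lowest of the sedentary fathers, and the log2 difference was -0.23 (SE 0.09, limma adjusted p = 0.565).

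Pecam1 had 498, 699.9, 752 and 449 normalized counts in exercised fathers, against 655, 691, 798 and 768 in sedentary fathers. Replicates 1 and 4 of the exercised fathers were below every library of sedentary fathers, while replicates 2 and 3 lay within the sedentary range. Its log2 difference was -0.31 (SE 0.16), and the limma adjusted p was 0.632. The same pair of low libraries set the values of Adgrl4, which had 449.8, 688, 852 and 449.9 normalized counts in exercised fathers, against 626, 593, 735 and 733 in sedentary fathers. Adgrl4 thus held both the lowest and the highest library of fathers in the exercised group (log2 difference -0.19, SE 0.19).

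Cldn5 had 719, 873, 948 and 786 normalized counts in exercised fathers, against 959.9, 972, 922 and 949 in sedentary fathers (log2 difference -0.20, SE 0.08, limma adjusted p = 0.584). The sedentary fathers were close together, with an SD of 21.3 against 99.8 in exercised fathers. Ly6c1 differed least, averaging 661 ± 106 normalized counts (mean ± SD, n = 4) in exercised fathers against 660.5 ± 61.4 (n = 4) in sedentary fathers. The remaining genes, Tie1, Slco1a4, Emcn and Esam, had log2 differences from -0.16 to -0.10 with standard errors from 0.11 to 0.15.

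At an unadjusted p under 0.05, 3 of the 10 members were lower (Cdh5, Tek and Cldn5), where 8.01% of all genes passed in either direction. With adjustment, 0% of all genes passed, 0 with edgeR on the recovered reads and 66 with DESeq2, none of them a member. In 0 of the 10 members were the groups apart, against 5% of all genes. The median log2 difference of the members, -0.18 in the main test, moved both ways under the alternatives. With libraries left out in turn it ran from -0.25, without exercised fathers replicate 2, to -0.09, without exercised fathers replicate 4. The latter is also the AD21 library of the fathers. With the thalamus and habenula list as a covariate the median was -0.07, and with the choroid plexus list it was -0.23. In the authors' deposited table the log2 fold changes before moderation ran from -0.25 (Cdh5) to 0.05 (Ly6c1). There 14 of 24357 genes had an adjusted p under 0.05, none of them a member.

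Other endothelial genes and the cells around vessels were read from lists. Of the other angiopoietin pathway genes, 4 of 6 were lower in exercised fathers, and Angpt2, a context-dependent Tie2 ligand, had a log2 difference of -0.55 (SE 0.32). Of 22 further endothelial surface genes 13 were lower and of 13 endothelial transcription factors 11, among them Tal1 at -0.78 (SE 0.26). Of 13 barrier transporters 7 were lower and 6 higher. Slc16a1, the monocarboxylate carrier MCT1, had -0.20 (SE 0.07), and Mfsd2a, a lipid transporter of the barrier, had 0.28 (SE 0.11). No gene of these lists passed the adjusted test.

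Markers of other vessel-associated cells lay on the same side as the members. All 14 mural cell genes (pericytes and smooth muscle) had lower means in exercised fathers, with a median log2 difference of -0.19, as had all 12 meningeal fibroblast genes (median -0.62) and all 5 erythrocyte genes (median -0.81). The summed level of the mural list ran from 7723 to 11734 normalized counts in exercised fathers and from 9454 to 11960 in sedentary fathers. The summed level of the erythrocyte list ran from 472 to 1455 normalized counts in exercised fathers and from 1011 to 4301 in sedentary fathers. All 15 choroid plexus genes had higher means in exercised fathers (median 1.70) and all 11 tested thalamus and habenula genes had lower means (median -0.72). None of these genes passed the adjusted test, and the part of the dissected tissue in the members' values was not tested. In bulk tissue, fewer endothelial cells and less of these mRNAs per cell cannot be told apart.

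**Figure D2:**
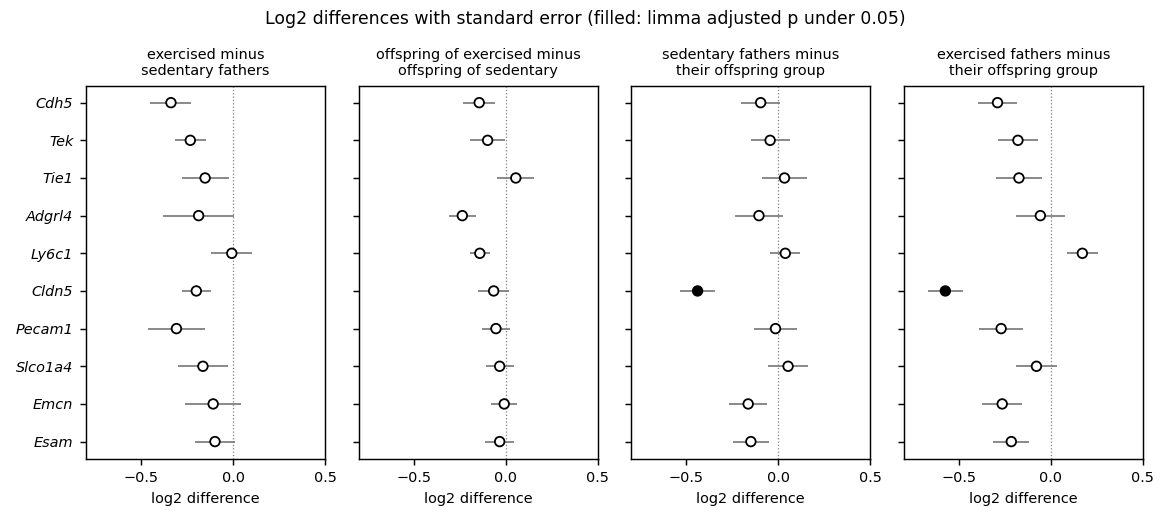
Log2 differences of the 10 endothelial markers (points, horizontal axis) with their standard error (bars) in 4 comparisons, each with the first-named group minus the second; filled points passed an adjusted p of 0.05 with limma. Cldn5 is the only filled point, at -0.57 in exercised fathers against offspring of exercised fathers and at -0.44 in sedentary fathers against offspring of sedentary fathers.

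The second comparison, the other stated goal, asked whether the offspring of exercised fathers differed from those of sedentary fathers. Again no member passed the test: 9 of 10 had a lower mean log2 level in offspring of exercised fathers, where 50.4% of all 17522 tested genes did, and the median of the members was -0.06. With the thalamus covariate Slco1a4 and Emcn turned just above 0. The largest differences were in Adgrl4, Cdh5 and Ly6c1.

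Adgrl4 had between 578 and 667 normalized counts in offspring of exercised fathers, with a median of 618, against 589.5 to 873 with a median of 699 in offspring of sedentary fathers. All 7 libraries of offspring of exercised fathers fell below the median of the other group, and the spread was smaller, with an SD of 33.5 against 98.1. The log2 difference was -0.24 (SE 0.07), with an unadjusted limma p of 0.00495 and an adjusted p of 0.393. Over all alternatives the adjusted p of Adgrl4 ran from 0.129 to 0.636. Ly6c1 had 538 to 649 normalized counts with a median of 567 in offspring of exercised fathers, against 555 to 711 with a median of 645 in offspring of sedentary fathers. Its log2 difference was -0.14 (SE 0.06), with a limma adjusted p of 0.450, and the groups overlapped over most of their range.

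Cdh5 had 524 to 767 normalized counts with a median of 574 in offspring of exercised fathers, against 616 to 842 with a median of 664 in offspring of sedentary fathers. In the offspring of exercised fathers, replicates 1 and 2 lay near 760 and the other 5 between 524 and 576. These 2 libraries carry titles that differ only in the last number, as do replicates 3 and 4 and replicates 5 and 6; what that number stands for is not given in the sources used here. Cdh5 differed by 0.02, 0.01 and 0.10 on the log2 scale within these pairs, while the group spanned 0.55. Not every member was so close within pairs: Cldn5 differed by 0.41 between replicates 1 and 2, where the group spanned 0.50, Pecam1 by 0.34 of 0.48 in the same pair, and Emcn by 0.26 of 0.36 between replicates 3 and 4. With the libraries of each pair averaged, 0 members passed as before. The log2 difference of Cdh5 between the groups was -0.14 (SE 0.09, limma adjusted p = 0.583).

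Tie1 was the member with a higher mean in offspring of exercised fathers, at 387 ± 56.8 normalized counts (SD, n = 7) against 373 ± 59.9 in offspring of sedentary fathers (SD, n = 8), well within the spread. Its log2 difference of 0.05 turned to -0.0382 with array weights and to -0.00248 without the AD21 libraries. The others, Tek, Cldn5, Pecam1, Slco1a4, Emcn and Esam, had log2 differences from -0.10 to -0.01 with standard errors from 0.07 to 0.10.

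At an unadjusted p under 0.05, 2 of the 10 members were lower, against 9.85% of all genes in either direction. The adjusted test called 0% of all genes, 0 genes with edgeR and 39 with DESeq2, none of them a member. The groups were apart in 0 members and in 0.148% of all genes. In the authors' deposited table the smallest adjusted p of a member was 0.527, for Ly6c1, and 11 of 12544 genes had one under 0.05.

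Of the other lists in the offspring, 17 of 22 endothelial surface genes and 10 of 13 barrier transporters had lower means in offspring of exercised fathers, against 50.4% of all genes. Of the venous genes 3 of 4 had higher means in offspring of exercised fathers, as had 3 of 6 angiopoietin pathway genes and both fenestrated endothelium genes (Plvap 0.19, SE 0.07). Flt1, the VEGF receptor 1, had a log2 difference of -0.23 (SE 0.08), S1pr1, a sphingosine-1-phosphate receptor, -0.17 (SE 0.06), Slc16a1 -0.18 (SE 0.05) and Slc19a3, a thiamine transporter, -0.23 (SE 0.09). Foxo1, a transcription factor held in check by Tie2 signalling, had 0.14 (SE 0.03, limma adjusted p = 0.360). Of the cells around vessels, 7 of 14 mural genes, 3 of 12 fibroblast genes and 5 of 5 perivascular macrophage genes had lower means in offspring of exercised fathers. So had 7 of 7 microglia, 5 of 5 oligodendrocyte, 5 of 6 astrocyte and 9 of 10 thalamus and habenula genes. None of these genes passed the adjusted test, and their part in the members' values was not tested.

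Whether the difference by paternal exercise was itself different between generations was tested as an interaction, fathers minus offspring. Of the members 0 passed, nor did any of the 18377 genes (0%; 0 with edgeR and 6 with DESeq2, none of them a member; 1042 genes had an unadjusted p under 0.05). The interaction ranged from -0.26 (Pecam1, SE 0.17) to 0.13 (Ly6c1, SE 0.12) on the log2 scale. The smallest limma adjusted p of a member was 0.909. A p that misses the threshold does not show that the generations acted alike.

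Between generations, claudin-5 was the member that differed. Cldn5 was lower in fathers than in offspring in both lineages, and in neither did the groups overlap. It had 719, 873, 948 and 786 normalized counts in exercised fathers, against 1060.1 to 1497 with a median of 1211 in offspring of exercised fathers. In sedentary fathers it had 959.9, 972, 922 and 949, against 1110.5 to 1536 with a median of 1242 in offspring of sedentary fathers. Thus the highest of the 8 libraries of fathers lay below the lowest of the 15 libraries of offspring.

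The log2 difference of Cldn5 was -0.57 (SE 0.10) in the exercised lineage, a ratio of 0.672, with a limma adjusted p of 0.0254. Only 12 of 18377 genes (0.0653%) passed in that comparison, and Cldn5 ranked 3rd by p. In the sedentary lineage the log2 difference was -0.44 (SE 0.09), a ratio of 0.738, with a limma adjusted p of 0.0477. There 55 genes (0.299%) passed and Cldn5 ranked 37th. The 2 comparisons share no library, but they share 1 estimate of the spread. Over the alternatives, the log2 difference ran from -0.64 to -0.49 in the exercised lineage (adjusted p from 4.0e-05 to 0.124), lost without exercised fathers replicates 1, 3 or 4, without offspring of exercised fathers replicate 4 and with only the 2 groups fitted, and from -0.47 to -0.40 in the sedentary lineage (adjusted p from 0.0020 to 0.402). In the sedentary lineage the call was lost when any 1 of 19 libraries was left out, all 8 fathers among them, without the AD21 libraries, and with the thalamus and habenula list as a covariate. With any 1 of the 23 libraries left out, 0 to 135 genes passed in all, and with that covariate 0 did. Generation, age and the table in which a library was deposited cannot be told apart here. In the exercised lineage the treadmill exercise of the fathers cannot be told apart from these either.

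The lower Cldn5 of fathers was also set against the other members of the same libraries. Measured as its log2 level minus the mean log2 level of the other 9 members, a quantity chosen after the values were seen, Cldn5 ran from 0.65 to 0.93 in exercised fathers and from 0.94 to 1.46 in offspring of exercised fathers. It ran from 0.64 to 0.93 in sedentary fathers and from 1.04 to 1.54 in offspring of sedentary fathers. The groups were apart in both lineages on this measure, with differences of -0.42 and -0.39, but only narrowly in the exercised lineage (0.929 against 0.939). Cldn5 was picked for its separation in these same libraries, so the measure gives no independent support. No share over all genes was computed for it. Of the other 9 members none passed the adjusted test in either lineage.

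In the exercised lineage, 9 of 10 members had lower means in fathers than in offspring, against 46.5% of all genes, and 5 had an unadjusted p under 0.05 (Cldn5, Cdh5, Emcn, Pecam1 and Esam), against 10.1% of all genes. The groups were apart in 1 member, Cldn5, and in 1.89% of all genes. Ly6c1 was the exception in direction, with a mean of 661 ± 106 (SD, n = 4) in exercised fathers against 583 ± 37.8 (n = 7) in offspring of exercised fathers, in normalized counts (log2 difference 0.17, SE 0.08, limma adjusted p = 0.494). In the same comparison 12 of 14 mural genes and 11 of 12 fibroblast genes had lower means in exercised fathers. Other endothelial lists were divided, with lower means in exercised fathers for 10 of 13 transcription factors, 4 of 5 venous genes, 11 of 22 surface genes, 5 of 13 barrier transporters and 3 of 8 arterial genes. All 7 microglia, 6 astrocyte, 5 oligodendrocyte and 15 choroid plexus genes had higher means in exercised fathers. None of these genes passed the adjusted test, and their part in the members' values was not tested.

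In the sedentary lineage the other members were near 0, with log2 differences from -0.16 (Emcn) to 0.05 (Slco1a4). There 7 of 10 members had lower means in fathers, against 49.4% of all genes, 1 had an unadjusted p under 0.05, against 12.7%, and the groups were apart in 1 member, again Cldn5, against 1.78%. Here 11 of 14 mural genes and 10 of 12 fibroblast genes had higher means in sedentary fathers. So had all 11 tested thalamus and habenula genes (median 0.61), 7 of them with an unadjusted limma p under 0.05. All 15 choroid plexus genes (median -0.51) and all 7 genes of the hippocampus list (median -0.12) had lower means in sedentary fathers. None of these genes passed the adjusted test, and their part in the members' values was not tested.

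By mean normalized count, exercised fathers were lowest of the 4 groups in 9 of the 10 members; the exception was Ly6c1, for which they were highest. No tested step between neighbouring groups in that order passed the adjusted test. The steps between sedentary fathers and offspring of exercised fathers, and for Tie1 also that between exercised fathers and offspring of sedentary fathers, were not tested, and the calls of Cldn5 lay between groups that are not neighbours in its order.

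The 10 markers varied together over libraries. After the mean of each group was subtracted, all 45 pairs of members had a Pearson r above 0 over the 23 libraries, from 0.10 to 0.83 with a median of 0.47 (median Spearman rho 0.48). These libraries share dissection and size factors, so the correlations are given as descriptions. Exercised fathers replicate 3 and offspring of exercised fathers replicate 1 lay farthest from the median deviation of the member mean over libraries. Without these 2 libraries the median r was 0.42 and 44 pairs stayed above 0. Single members had a median r with all tested genes between -0.02 and 0.01.

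Pecam1 followed the others most closely, with an r of 0.93 with the mean of the other 9 members, the first rank among 18368 genes. Cdh5 had 0.85, Tie1 0.80, Tek 0.71, Esam 0.67, Slco1a4 0.60, Adgrl4 0.58, Ly6c1 0.57 and Emcn 0.52. Cldn5 was the loosest, with an r of 0.47. Library to library, Adgrl4 had the largest SD of its log2 deviations among the 10 members, 0.23, and Ly6c1 the smallest, 0.14.

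The pattern was tighter in the fathers than in the offspring, a difference that was not tested. Over the 8 libraries of fathers the median r of the pairs was 0.77 and all 45 were above 0. Over the 15 libraries of offspring it was 0.27 and 33 were above 0. The r of Adgrl4 with the mean of the other 9 members was 0.94 in fathers and 0.03 in offspring, and that of Ly6c1 was 0.95 in fathers and 0.04 in offspring. The SD of the log2 deviations also differed, at 0.34 in fathers and 0.15 in offspring for Adgrl4, and 0.19 and 0.10 for Ly6c1. Tek (0.13 and 0.20) and Cldn5 (0.12 and 0.18) spread more in offspring. In exercised fathers replicates 1 to 4 the member mean deviated by -0.20, 0.19, 0.23 and -0.21. The part of this split in the r of fathers was not tested. Cdh5, Tek, Tie1 and Pecam1 had values from 0.85 to 0.96 in fathers and from 0.81 to 0.89 in offspring. In offspring, Ly6c1 had an r of 0.67 with Esam and of -0.46 with Slco1a4. Cdh5 with Tek had the highest r of the offspring pairs, 0.83.

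**Figure D3:**
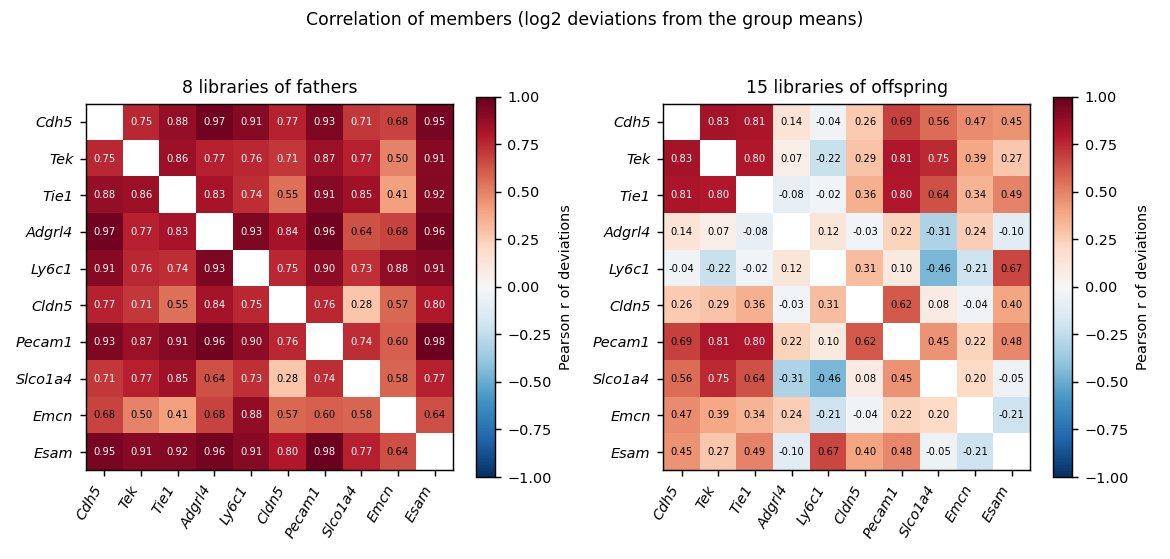
Pearson r between log2 deviations of the 10 endothelial markers from their group means, over 8 libraries of fathers (left) and 15 of offspring (right). Colour runs from -1 (blue) to 1 (red). All pairs are above 0 in fathers (0.28 to 0.98), while in offspring Cdh5, Tek, Tie1 and Pecam1 form a block and Adgrl4 and Ly6c1 stand off, with pairs down to -0.46.

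The co-variation was tested with the log2 level of Cdh5 as a covariate beside the 4 groups, for every gene. All 9 other members had a positive slope on Cdh5, and 3 passed the adjusted test, where 163 of 18376 genes did (0.887%; 148 with a positive slope). Tie1 had a slope of 0.96 log2 units per log2 unit of Cdh5 (SE 0.15, limma adjusted p = 0.00238), Pecam1 one of 0.86 (SE 0.16, adjusted p = 0.00847) and Tek one of 0.80 (SE 0.14, adjusted p = 0.00617). The slopes of the others ran from 0.29 (Ly6c1) to 0.66 (Adgrl4) and did not pass. Without offspring of exercised fathers replicate 1 only Tie1 passed, and 54 genes in all. With Pecam1 in place of Cdh5 as covariate 4 members passed, and with Cldn5 0 members and 0 genes (846 at an unadjusted p under 0.05). The count of all genes called with Pecam1 is not given here, so the 4 members have no share to be read against.

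Other genes of the angiopoietin pathway were read in the same fit. The genes outside the members that are named here with a slope were picked from those past the test, after their values were seen. Of its 6 tested genes outside the members 3 had a positive slope past the test: Ptprb, the endothelial phosphatase that acts on Tie2, with 1.18 (SE 0.19), Svep1, an extracellular ligand of Tie1, with 1.62 (SE 0.39), and Angpt2 with 1.98 (SE 0.44). Of 22 further endothelial surface genes 7 passed, among them Podxl (0.86, SE 0.11), the endothelial nitric oxide synthase Nos3 (0.73, SE 0.12) and endoglin, Eng (0.84, SE 0.13). Of the transcription factors 2 of 13 passed, Sox7 and Sox17. Of the barrier transporters 3 of 13 did, Abcb1a (P-glycoprotein), Abcg2 and Slc22a8.

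Genes of other vessel-associated cells passed too. Of 12 meningeal fibroblast genes 9 had a positive slope past the test, with Fmod at 3.91 (SE 0.73) and Col3a1 at 3.50 (SE 0.64), both steeper than any member. Of 14 mural genes 8 passed, among them the smooth muscle gene Myh11 at 2.44 (SE 0.41), and of 5 perivascular macrophage genes 3. No gene of the erythrocyte, choroid plexus, thalamus, neuron, microglia, astrocyte or oligodendrocyte lists passed. Still, all 15 choroid plexus genes had a positive slope (median 3.44), with 0 at an unadjusted limma p under 0.05. So had 10 of 11 thalamus and habenula genes (median 0.89), 4 of them under that p, where 12.4% of all genes were. Slopes were negative in all 5 erythrocyte and all 5 oligodendrocyte genes. The part of neighbouring vessel or meningeal tissue in the co-variation of the members was not tested.

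The mean of the mural list had an r of 0.87 with the mean of the 10 members over the 23 libraries, after subtraction of group means, that of the other endothelial surface genes 0.83, that of the barrier transporters 0.82 and that of the fibroblast genes 0.76. Erythrocyte genes had 0.10 and choroid plexus genes 0.12. Oligodendrocyte genes had -0.41. Within the fathers alone the erythrocyte list had an r of 0.78, and within the offspring -0.36.

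**Figure D4:**
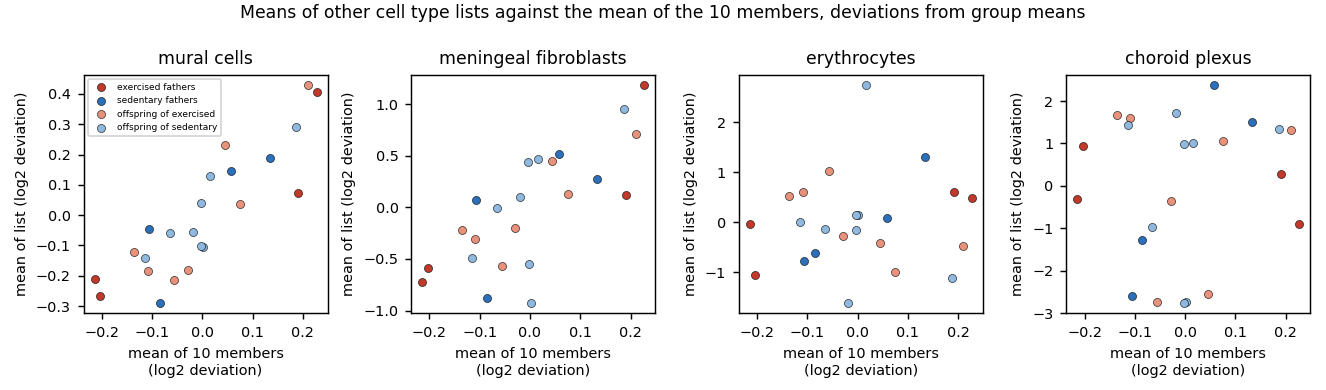
Mean log2 deviation from the group mean of 4 marker lists (vertical axes) against that of the 10 endothelial markers (horizontal axes), 1 point per library, 23 libraries in 4 groups by colour. Mural (r = 0.87) and fibroblast (r = 0.76) genes increase along with the endothelial markers, and erythrocyte (r = 0.10) and choroid plexus (r = 0.12) genes show little relation.

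The 10 genes outside the members whose deviations were most like the mean of the 10 members had an r from 0.90 to 0.85 over the 23 libraries. They were Lrrk1, Arhgap29, Adgra2, Abcg2, H2-Q1, Ltbp4, Eng, Nid1, Abcb1a and Nos3. Abcg2 and Abcb1a are efflux pumps of the barrier, Adgra2 (GPR124) is an adhesion receptor of brain endothelium, and Nid1 is a basement membrane protein. Of these 10, 4 were on the endothelial lists. Without subtraction of group means 5 of the 10 remained among the top 10. Over the 69 tested genes of the endothelial lists outside the members the median r was 0.44 and 89.9% were above 0, against a median of -0.01 and 48.7% over all other tested genes.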

How the data were processed

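Groups of the 23 libraries were taken from the labels; replicate numbers follow accession order and only name libraries. Per the labels' protocols, libraries were strand-specific (TruSeq Stranded mRNA) and read as pairs of 76 bases. Tools named in the submitters' processing notes are STAR 2.5.2a, RSEM 1.2.28 and DESeq2 1.10, with build GRCm38; their roles, the annotation and filters are not stated there. By its title, each table leaves out an outlier.

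The authors deposited normalized values, a signal on the scale of counts. Division by the value of 1 read gave whole reads within 0.1 throughout, so each column is gene counts over 1 size factor. Comparison tables deposited by the authors hold log2 fold changes, p-values and a test statistic (a score), as their headers name them. Of 61 pairs of libraries within groups none agreed within sampling noise (chi-square over degrees of freedom from 5.99 to 66.7). Nothing says that libraries are separate animals, so p-values measure only how these samples vary, in part perhaps for technical reasons, and reads are not independent molecules.

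The main test was limma 3.58.1 (R 4.3.3) with a mean-variance trend on log2(normalized count + 1), two-sided, adjusted by Benjamini-Hochberg over all tested genes with a threshold of 0.05; these log2 differences understate changes of low genes. A gene was tested where 4 libraries (7 in the offspring fit) reached a normalized count of 10. Comparisons within a generation used its own libraries, and all others the 23 libraries. Alternatives were edgeR 4.0.16 and DESeq2 1.42.0 on recovered reads, other scalings, filters and covariates, and left-out libraries. The fits in the fathers, in the offspring, of the interaction and of the co-variation were run on simulated reads, with noise drawn independently for each gene. Comparisons between generations were not simulated. Coordinates and exon lengths are from GENCODE M21 (GRCm38), which matched 51633 of 51912 identifiers without their version. The members, the 20 gene lists (187 genes) and the rule for naming genes (all members, the genes of each list with the smallest p, and those most like the members) were chosen with earlier results of these data known. Correlations use deviations from group means.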

Additional observations from a re-analysis of the deposited data

Results flagged for a closer look

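Each member and the mean of the members was searched for a library far from the others of its group, in 44 sets of 4 to 8 libraries, and chance alone marks about 1 in 20 such sets. Cdh5 had 842 normalized counts in offspring of sedentary fathers replicate 3, far above the next library of that group at 682. Tie1 had 509 normalized counts in the same library, with the next at 383. The mean log2 level of the 10 members was 9.45 there, with the next at 9.28, so the library stood above its group over the members together. Tek had 507 normalized counts in sedentary fathers replicate 1, below the next of that group at 549; the other 3 lay within 549 to 552.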

How the results depend on the processing

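No paired analysis was possible because the replicate numbers follow accession order and pair no libraries across groups. No member passed the test in the fathers, in the offspring or in the interaction under any alternative run. In the sedentary lineage the main fit called 1 member (Cldn5) among 55 genes. The count of members became 0 with no filter (32 genes called in all), with quantile normalization (24) and without the AD21 libraries (8). It was also 0 with the thalamus and habenula covariate (0 genes), with title pairs averaged (16) and with only the 2 groups (3). Leaving out libraries gave 0 to 1 members and 0 to 135 genes. In the exercised lineage the main fit called 1 member (Cldn5) among 12 genes, and with only the 2 groups 0 members and 3 genes. Leaving out libraries gave 0 to 1 members and 0 to 28 genes. The count of members was 0 without exercised fathers replicates 1, 3 or 4 (1, 0 and 4 genes). It was also 0 without offspring of exercised fathers replicate 4 (2 genes). Beside Cdh5, 3 members passed, among 163 genes in all. With Cldn5 as covariate 0 members and 0 genes did, and leaving out libraries gave 1 to 4 members and 54 to 187 genes. The cause was not tested in any of these cases.

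Sign changes arose among log2 differences that lay between -0.131 (Slco1a4 in the interaction) and 0.0545 (Tie1 in the offspring) in the main test. Array weights gave 0.0797 for Ly6c1 and 0.00908 for Emcn in exercised against sedentary fathers, -0.0382 for Tie1 in the offspring, -0.0117 for Tie1, -0.00490 for Ly6c1 and -0.00266 for Slco1a4 in the sedentary lineage, 0.0113 for Adgrl4 in the exercised lineage, and 0.0165 for Emcn and 0.0440 for Esam in the interaction. Without the AD21 libraries Ly6c1 had 0.0641 in the fathers, Tie1 -0.00248 in the offspring and -0.0235 in the sedentary lineage, and Adgrl4 0.0702 in the exercised lineage. With the thalamus covariate Ly6c1 had 0.0402 in the fathers, Slco1a4 0.0163 and Emcn 0.0182 in the offspring, Tie1 -0.138 and Slco1a4 -0.106 in the sedentary lineage, and Slco1a4 0.0144 in the interaction. DESeq2 gave 0.00180 for Ly6c1 in the fathers.

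Leaving out 1 library gave ranges across 0 for these log2 differences. In the fathers Ly6c1 ran from -0.0836 to 0.0641 and Emcn from -0.182 to 0.0136. In the offspring Emcn ran from -0.0366 to 0.0240, Esam from -0.0749 to 0.00388 and Tie1 from -0.00107 to 0.120. In the sedentary lineage Ly6c1 ran from -0.0217 to 0.0837, Pecam1 from -0.0608 to 0.0338, Slco1a4 from -0.0325 to 0.139 and Tie1 from -0.0330 to 0.122. In the exercised lineage Adgrl4 ran from -0.236 to 0.0703. In the interaction Adgrl4 ran from -0.131 to 0.176, Emcn from -0.174 to 0.0221 and Esam from -0.135 to 0.00148. The lowest value of any member in any library was 139 normalized counts.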
